A study of Mus musculus with 42 samples.

Results

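Squamous cell carcinomas of mouse skin were compared with all papillomas that carry a risk label, pooled as 1 benign group. The members are samples, chosen by title on the first of the 2 array designs of the series: 26 of 42 arrays, which make 25 replicates, since 2 arrays of low-risk papillomas held the same tumour with the dyes swapped and were averaged. The 25 were 6 carcinomas and 19 papillomas, of which 9 were labelled low-risk and 10 high-risk. All tumours came from adult female Sencar mice, a stock bred for its sensitivity to skin tumour induction, that were given DMBA, a mutagen which starts tumours, and TPA, a phorbol ester which promotes them, for a time given only as many weeks. The age field of every tumour reads 7 to 8 weeks and initiated. Each replicate is 1 tumour. By their labels 2 low-risk and 6 high-risk papillomas share a code with another papilloma of their group, and nothing else says how far the tumours came from separate mice, so the p-values measure the spread between these tumours. Each tumour RNA was hybridised against a universal mouse reference RNA, and a value here is log2 of tumour over reference after each array was centred on its median. The sign of this ratio is likely and not stated by the submitters, and base 2, on which the folds rest, was taken from the size of the values.

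Papillomas of this model are outgrowths of thickened epidermis that still differentiates toward a horny layer, and a small share of them progress to squamous cell carcinomas, which invade the dermis. A differentiating keratinocyte leaves the basal layer, switches from basal to suprabasal keratins, and then makes proteins such as loricrin, filaggrin, repetin and the small proline-rich and late cornified envelope families, which transglutaminases crosslink under the cell membrane. Many of these proteins are encoded side by side in the epidermal differentiation complex, which in the mouse lies on chromosome 3. A bulk tumour also holds stroma and immune cells, so fewer cells of a type and less RNA per cell cannot be told apart in any value below.

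Several arrays stood apart before any gene was tested. By the pattern of their empty probes the arrays were clustered and cut into 5 sets, a chosen number, named A to E. The carcinomas lay in 2 of them: carcinomas 5 and 6 in set C with 4 high-risk papillomas, and carcinomas 1 to 4 in set D with 3 low-risk papillomas and 1 high-risk papilloma. A fit that blocks on array set therefore compares the groups within sets C and D only. Among the papillomas, set B held low-risk ones only and sets A and E high-risk ones only. The 2 risk groups therefore met only in set D. Carcinoma 6 differed from normal skin 1, which was also in set C, by 0.064 in log2 units (the median absolute difference of 16718 probes), with r = 0.984 across probes, against 0.177 for the next closest pair of arrays. Whether 1 library stands behind both was not tested, and the calls, and the list medians that moved by over 0.1, are given with and without carcinoma 6. The ratios of carcinoma arrays were also narrower: their SD was 0.838 ± 0.164 (SD, n = 6) against 1.26 ± 0.418 (SD, n = 19), a difference with p = 0.0257 in a 2-sided permutation test that took no account of the sets. The widest arrays lay in sets B and E, which hold no carcinoma. In set C carcinomas 5 and 6 had SDs of 0.561 and 0.757 and the papillomas 0.454 to 0.775, so there they overlapped, and in set D the carcinomas had 0.871 to 1.05 and the papillomas 1.04 to 1.34. Between 16286 and 21494 of 21997 probes had a value on each array, and the number of arrays limits the precision. Over the 6548 probes with a value in all 25 replicates, and after the mean of each probe was removed, carcinomas 1 to 4 correlated with each other at r of 0.203 to 0.554 across probes, carcinomas 5 and 6 at 0.726, and carcinomas of different sets at -0.132 to 0.288. Carcinoma 5 correlated best with a high-risk papilloma of its own set, replicate 7, at 0.810.

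Krt5, Dsp and Krt10 had means above the reference in both groups. Keratinocyte genes also served to set the sign of the ratio, so this is no separate test of the label. Krt5, the basal keratin, stood at 3.76 ± 0.884 (SD, n = 4) in carcinomas and 3.86 ± 1.57 (SD, n = 19) in papillomas, and every measured tumour was above the reference. Dsp, which anchors keratin filaments to desmosomes, stood at 2.86 ± 0.953 (SD, n = 6) against 3.30 ± 1.24 (SD, n = 18). The suprabasal keratins were nearer to the reference in carcinomas. Krt10 was at 0.61 ± 0.423 (SD, n = 6) against 1.77 ± 0.859 (SD, n = 19), a log2 difference of -1.16 ± 0.36 (SE) with limma's adjusted p = 0.279, which did not pass the test.

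The pooled comparison asked which genes separate malignant from benign tumours whatever the risk label. Limma called 10 of 19020 probes at an adjusted p under 0.05, or 0.0526% of those tested, 6 higher (0.0315%) and 4 lower (0.021%) in carcinomas. Higher were Saraf, Ppbp, Plet1, Lyz1, Cited2 and 1 probe without a gene symbol, and lower were Rptn, Fam83g, Lmod2 and Fut7. All 10 also differed in the same direction from low-risk and from high-risk papillomas at an unadjusted p under 0.05 in the fit with 3 groups. The comparisons with the 2 papilloma groups share the carcinomas and reuse the tumours of the pooled one at a looser threshold. That the 10 pass them is therefore no separate support. At an adjusted p under 0.05 limma called 93 probes against low-risk and 1 against high-risk papillomas in that fit. Without carcinoma 6 limma called 5 of the 10: Saraf, Ppbp, Plet1, Lmod2 and Fut7. Of the 32 gene lists described below, leaving it out moved 5 medians by over 0.1: small proline-rich genes from -0.80 to -0.999, basal epidermis from -0.34 to -0.48, mesenchymal transition from 0.36 to 0.49, ribosomal proteins from -0.34 to -0.47 and the sebaceous gland from 0.03 to 0.15. At an unadjusted p under 0.05 stood 855 probes higher (4.5%) and 958 lower (5.04%), and the median difference over all probes was -0.01. Of all 19020 probes, 9350 were above 0 and 9670 below. The counts of list members given below are to be read beside these shares of all probes.

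Rptn encodes repetin, a calcium-binding precursor of the cornified envelope that is made late in epidermal differentiation. It had values in 4 carcinomas, at 1.06 in replicate 1, 0.054 in replicate 2, 0.258 in replicate 3 and 1.51 in replicate 4, all in set D. In low-risk papillomas it ran from 2.31 over a median of 4.33 to 6.41 (n = 9), and in high-risk ones from 1.98 over 4.61 to 5.08 (n = 6). Every measured carcinoma was below every measured papilloma. The carcinomas were lower by 3.44 ± 0.62 (SE) on the log2 scale, or 10.8-fold (limma, adjusted p = 0.0429), the largest size among the 10. Normal skin stood at 0.20 ± 0.497 (SD, n = 5) with its highest array at 1.05, so it overlapped the carcinomas. No array of set C gave a value for Rptn, so the whole difference rests on the other sets, and within set D it was -2.82 (adjusted p = 0.0612).

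A pair of promoters of the complex is shown, that of Rptn and that of Sprr2b, a small proline-rich envelope precursor with the next smallest p among the cornified and small proline-rich genes. Each stretch has 300 bases, the last 50 of them after the start, from RefSeq's annotation of GRCm38.p6 on the plus strand, at chr3:93393449-93393748 for Rptn and chr3:92316455-92316754 for Sprr2b. Capitals mark a TATA box, searched as TATAAA, and an AP-1 element, searched as TGANTCA, each on both strands.
Rptn: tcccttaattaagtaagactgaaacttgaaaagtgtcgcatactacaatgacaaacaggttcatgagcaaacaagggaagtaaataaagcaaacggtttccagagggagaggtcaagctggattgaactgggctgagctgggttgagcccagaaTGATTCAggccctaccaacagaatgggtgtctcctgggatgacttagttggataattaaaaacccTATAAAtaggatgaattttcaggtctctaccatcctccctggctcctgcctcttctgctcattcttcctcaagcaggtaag
Sprr2b: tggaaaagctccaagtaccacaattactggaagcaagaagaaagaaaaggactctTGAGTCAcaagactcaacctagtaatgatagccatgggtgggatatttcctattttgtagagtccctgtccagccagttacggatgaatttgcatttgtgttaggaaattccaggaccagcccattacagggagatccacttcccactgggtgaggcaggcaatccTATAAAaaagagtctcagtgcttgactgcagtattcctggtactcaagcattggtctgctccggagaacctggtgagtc
Both promoters hold 1 match of each motif, with the TATA box at -31 in Rptn and at -29 in Sprr2b counted from the start. The promoters of Lce1a2 and Lce1e, genes of the same complex described next, hold 0 matches of either motif. Of 32851 promoters in the table, 13.6% hold TATAAA and 7.81% TGANTCA. Of the 46 promoters that belong to 42 tested genes of the complex, 50% hold the first and 34.8% the second. A match describes the letters and is no measured site.

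Sprr2b was at 0.59 ± 0.302 (SD, n = 4) in carcinomas and 2.62 ± 0.818 (SD, n = 15) in papillomas, lower by 2.03 ± 0.41 (SE), and missed the threshold (adjusted p = 0.0832). Around it the complex leaned the same way against the pooled papillomas. Of the 70 protein-coding genes from S100a1 to S100a10 in chromosomal order, 46 were tested, and their median difference was -0.75 against -0.01 over all probes, with 39 below 0 and 7 above. At an unadjusted p under 0.05, 17 of the 46 were lower and 3 higher, against 5.04% and 4.5% of all probes, and 1, Rptn, was called. From low-risk papillomas the median of the 46 was -1.11 with 6 above 0, and from high-risk ones -0.48 with 11 above 0. Against the pooled papillomas the late cornified envelope genes were the most uniform part, with 13 of 13 below 0 and a median of -1.30. Lce1a2 stood at 3.29 ± 1.26 (SD, n = 6) against 5.12 ± 1.01 (SD, n = 18), a difference of -1.83 ± 0.48 (SE, adjusted p = 0.203), and Lce1e at 3.61 ± 1.02 (SD, n = 4) against 6.18 ± 1.44 (SD, n = 15), with adjusted p = 0.251. Some of the late cornified envelope genes are close copies of one another, and how far their probes cross-hybridise was not tested. The 11 Sprr genes had a median of -0.69 with 10 below 0, while the 12 S100 genes, calcium-binding proteins with many roles outside cornification, had a median of -0.06 with 5 above 0. The median of the 46 was -0.44 with the array set as a block, -0.95 within set D and 0.19 within set C, where 24 of 35 were above 0. It was -0.16 after quantile and -0.20 after scale normalization.

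**Figure D1:**
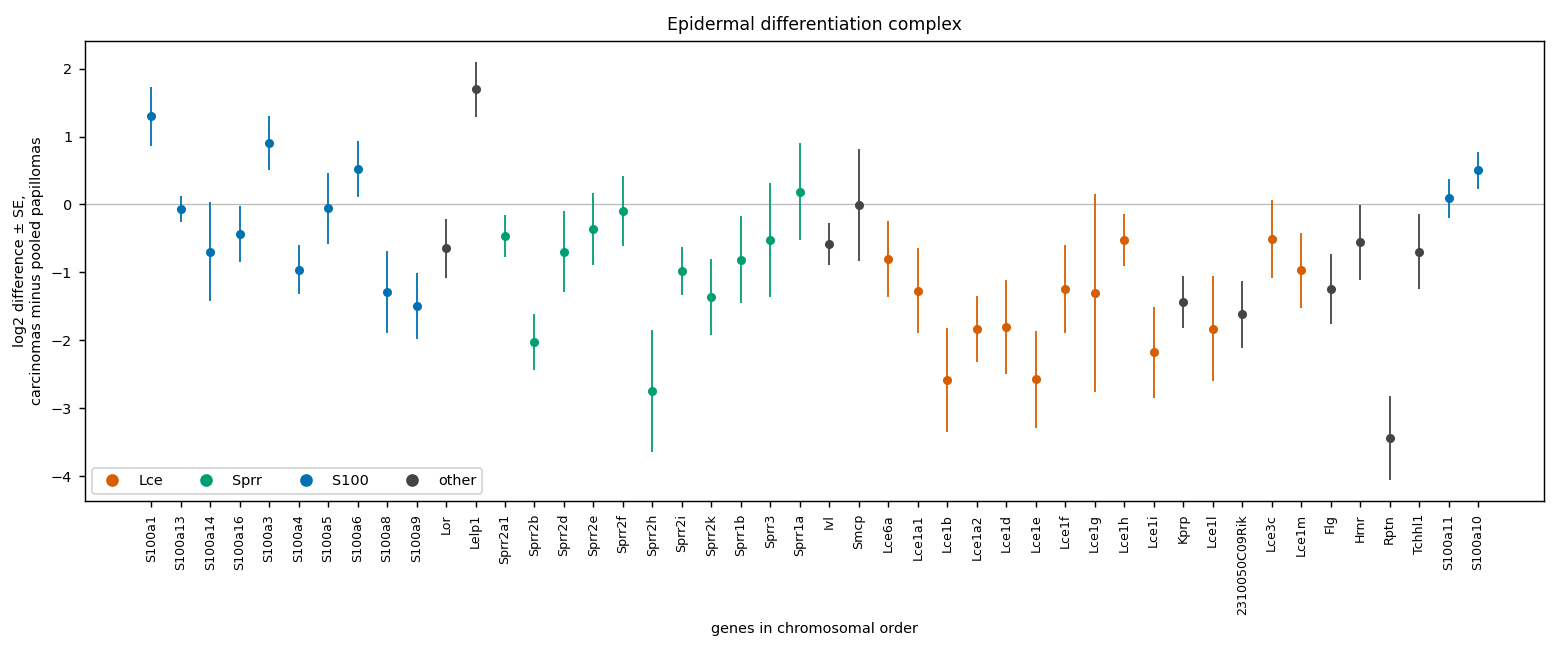
Log2 difference between carcinomas and pooled papillomas, with its SE, for the 46 tested genes of the epidermal differentiation complex in chromosomal order, coloured by family. The 13 Lce genes all lie below 0, Rptn lies lowest at -3.44, and the S100 genes at both ends lie on either side of 0.

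The list of the cornified envelope, 34 tested genes for the crosslinked proteins and the enzymes that crosslink and shed them, had a median difference of -1.19, the lowest of 32 lists, with 33 of 34 below 0. Limma called 1 of them, Rptn, and 16 were lower and 0 higher at an unadjusted p under 0.05. The mean level of the list per tumour was 0.71, 1.71, 1.72 and 1.76 in the 4 carcinomas of set D and between 2.66 and 3.20 in the 4 papillomas of that set, so there the groups did not overlap. In set C carcinoma 5 stood at 1.18, carcinoma 6 at 2.42 and the 4 papillomas between 0.76 and 1.84, so the groups overlapped. The list's median was -1.42 within set D, 0.32 within set C, -0.91 with the set as a block and -1.21 without carcinoma 6. It was -0.62 after quantile and -0.56 after scale normalization, below 0 in both. The part of the narrower carcinoma arrays in its size was not tested.

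Small proline-rich proteins and the keratins of activated epidermis, 28 genes tested, had a median of -0.80, which turned to 0.10 after quantile normalization, 0.07 after scale normalization and 1.03 within set C, and was -0.35 with the set as a block. None was called, 8 were lower and 2 higher at an unadjusted p under 0.05. In set C the list's mean level was 2.67 in carcinoma 6, 1.27 in carcinoma 5 and 0.99 to 1.36 in the 4 papillomas. Carcinoma 6 is the array nearly identical to normal skin 1. Defb3, an antimicrobial defensin, was at 1.40 ± 0.978 (SD, n = 6) in carcinomas against 4.40 ± 2.27 (SD, n = 17) in papillomas (adjusted p = 0.274), while within set C it was higher in carcinomas by 1.52. The 2 genes on the other side were Krt13 and Krt4, the keratin pair of the differentiating layers of mouth and oesophagus, whose appearance in the skin is a known mark of papilloma progression. Krt13 stood at 3.25 ± 0.726 (SD, n = 6) against 2.42 ± 0.844 (SD, n = 19) and Krt4 at 1.65 ± 1.08 (SD, n = 6) against 0.62 ± 0.899 (SD, n = 19), with limma's adjusted p = 0.482 and 0.433. Neither passed the test.

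Other lists of the epidermis leaned lower with 0 called members. Lipid barrier enzymes (16 tested) had a median of -0.35 with 6 lower and 0 higher at an unadjusted p under 0.05, and 0.07 within set C. Their lead members were Elovl4, which lengthens the fatty acids of skin ceramides (-2.11 ± 0.64, adjusted p = 0.276), and Dgat2, which makes triglycerides (-1.57 ± 0.47, adjusted p = 0.279). Notch and hair-cycle regulators (19 tested) had a median of -0.49 with 17 below 0 and 6 lower, and kept a median below 0 in all 25 alternative settings other than leaving out a tumour. Ovol1, a repressor that acts in early differentiation, was at 0.46 ± 0.801 (SD, n = 5) against 1.79 ± 0.917 (SD, n = 17), with adjusted p = 0.302, and Gata3 differed by -0.84 ± 0.29 (adjusted p = 0.317). Basal epidermis (15 tested) had a median of -0.34, which turned to 0.03 within set D, led by Sfn, which holds the cell cycle in check (-1.88 ± 0.50, adjusted p = 0.218), and Cdh3, the cadherin of basal cells (-1.17 ± 0.46, adjusted p = 0.408). Desmosomes and adherens junctions (14 tested) had a median of -0.35 that turned to 0.10 after quantile and 0.13 after scale normalization, with Pkp1 at -1.49 ± 0.65 (adjusted p = 0.481) and Jup at -0.82 ± 0.40 (adjusted p = 0.533). The list's mean level was 1.06 in carcinomas, 1.07 in high-risk and 1.68 in low-risk papillomas. Jup differed by -1.34 from low-risk and by -0.22 from high-risk papillomas. Pkp1 had means of 2.69 in carcinomas, 3.70 in low-risk and 4.93 in high-risk papillomas. The difference of Pkp1 turned to 0.02 after scale normalization. The hair follicle list (19 tested) had a median of -0.19, led by Krt27, a keratin of the inner root sheath (-0.91 ± 0.28, adjusted p = 0.285). Krt27 had values in only 3 low-risk papillomas. The list was mixed, with 13 members below 0 and 6 above, and 5 lower and 2 higher at an unadjusted p under 0.05. Its median was -0.31 against low-risk and -0.03 against high-risk papillomas.

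**Figure D2:**
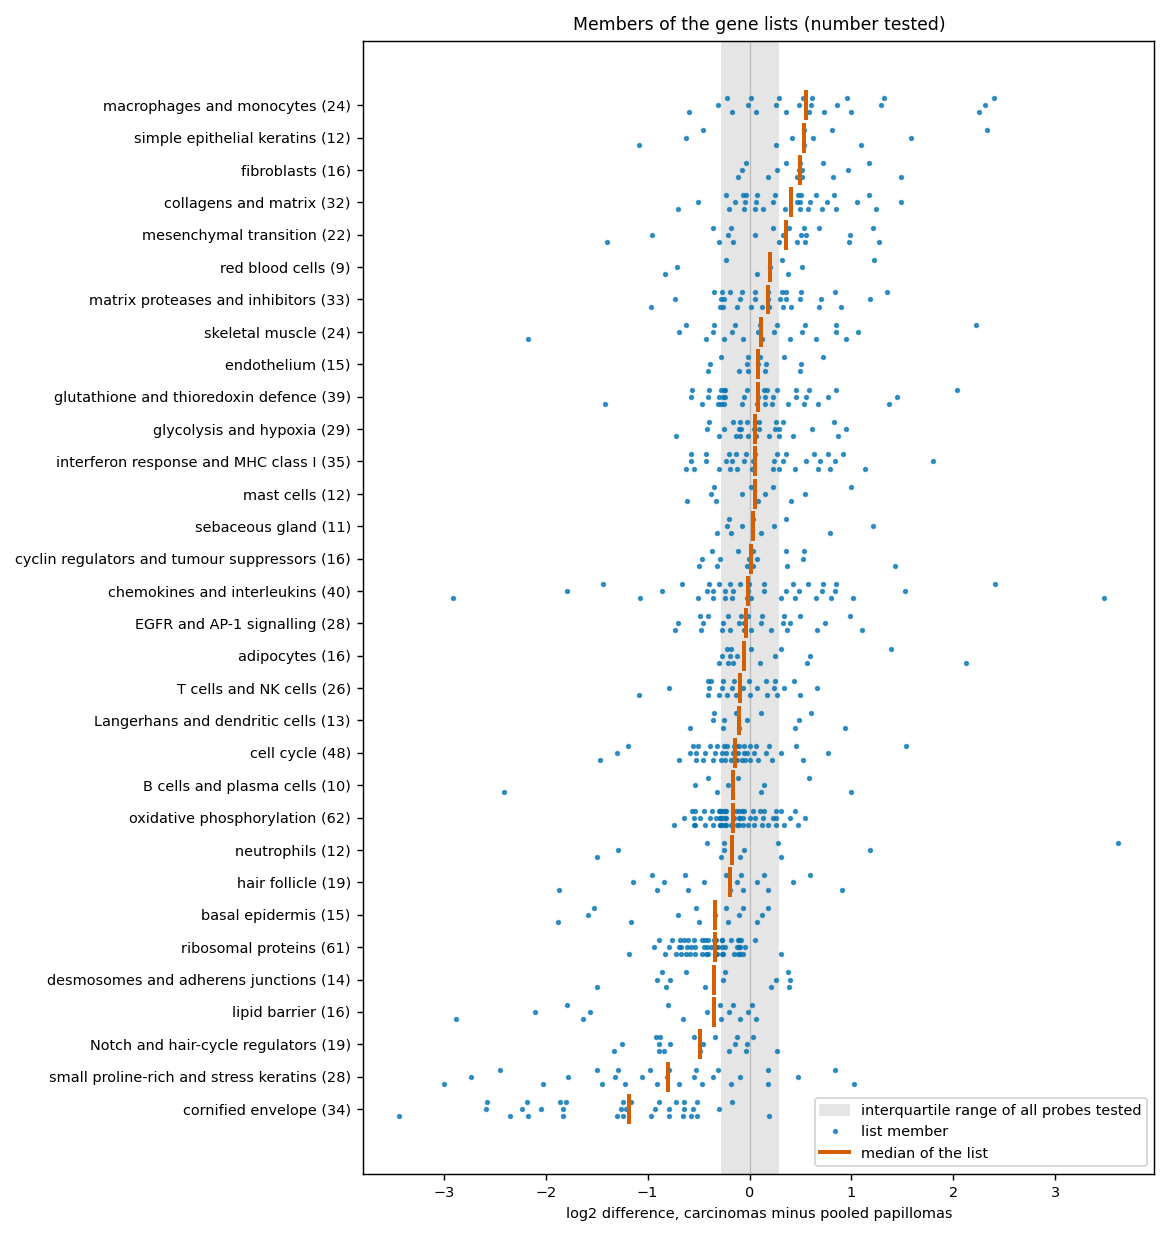
Log2 difference between carcinomas and pooled papillomas for each tested member of 32 gene lists, ordered by the list's median, with the interquartile range of all 19020 probes shaded. The cornified envelope list has the lowest median, -1.19, and macrophages and monocytes the highest, 0.55.

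Fam83g and Fut7 were also called lower. Fam83g encodes a partner of casein kinase 1 whose loss gives mice a woolly coat. Its 5 measured carcinomas were at 2.22 in replicate 1, 0.123 in replicate 2, 0.484 in replicate 3, 1.43 in replicate 4 and 0.571 in replicate 5. Papillomas ran from 1.26 over a median of 3.37 to 4.80 (n = 16), so 3 carcinomas lay below all of them and 2 overlapped. The difference was -2.34 ± 0.44 (limma, adjusted p = 0.0429). Fut7 encodes the fucosyltransferase that completes sialyl Lewis X, the sugar to which selectins bind. Its carcinomas were at -0.199 in replicate 1, -0.292 in replicate 2, -0.189 in replicate 3, 0.05 in replicate 4 and -0.663 in replicate 5, all below the lowest papilloma at 0.20 (median 1.59, highest 2.52, n = 16). The difference was -1.83 ± 0.30 (adjusted p = 0.0176), and -1.75 in the fit that blocked on array set (adjusted p = 0.0263). Normal skin was at 1.08 ± 0.535 (SD, n = 5) for Fut7 and 2.12 ± 0.605 (SD, n = 5) for Fam83g.

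Lmod2 encodes leiomodin, an actin nucleator known from striated muscle, and was measured in all 25 replicates. Carcinomas ran from -0.04 over a median of 1.03 to 1.52, low-risk papillomas from 2.84 over 3.60 to 4.62, and high-risk papillomas from 1.28 over 2.55 to 3.67. All carcinomas lay below all low-risk papillomas, and the highest overlapped the lowest high-risk ones. The pooled difference was -2.17 ± 0.35 (adjusted p = 0.00714), made of -2.73 from low-risk and -1.67 from high-risk papillomas. The gap between these, tested as high-risk minus low-risk papillomas, was -1.07 ± 0.28 with limma's adjusted p = 0.0971. This gap cannot be told apart from array set, since the papilloma groups met only in set D. The list that holds Lmod2 was mixed: of 24 skeletal muscle genes tested 14 were above 0 and 10 below, with a median of 0.11, 4 higher and 2 lower at an unadjusted p under 0.05, and Acta1, the actin of skeletal muscle, was at 1.10 ± 0.855 (SD, n = 5) against -1.12 ± 1.87 (SD, n = 18) (2.22 ± 0.81, adjusted p = 0.362). Within set C the difference in Lmod2 was -1.23 and within set D -2.56.

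Saraf, which shuts off store-operated calcium entry at the endoplasmic reticulum, rose most among the called genes. Carcinomas ran from 1.83 over a median of 3.40 to 3.80 (n = 6), low-risk papillomas from -0.30 over 0.45 to 2.32 (n = 9) and high-risk papillomas from -0.53 over 0.22 to 1.32 (n = 9). Of the 6 carcinomas 5 lay above every papilloma, and carcinoma 5 overlapped the low-risk group. The difference was 2.63 ± 0.37, or 6.18-fold (adjusted p = 0.00285). It was 2.54 within set C, within set D, with the set as a block and without carcinoma 6. Normal skin stood at 0.55 ± 1.69 (SD, n = 5), with the array nearly identical to carcinoma 6 at 3.54.

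Ppbp encodes the precursor of CXCL7, a neutrophil-attracting chemokine best known from platelets. It had values in 4 carcinomas, at 3.71 in replicate 1, 3.21 in replicate 2, 3.11 in replicate 3 and 2.11 in replicate 4, all in set D. The papillomas ran from -0.62 over a median of 0.58 to 1.87 (n = 15), below all 4. The difference was 2.41 ± 0.33, or 5.33-fold (adjusted p = 0.00285), and 2.56 within set D (adjusted p = 0.014). Normal skin was at -0.53 ± 0.277 (SD, n = 5). The 40 tested chemokines and interleukins had a median of -0.01, with 6 higher and 4 lower at an unadjusted p under 0.05, and Ppbp was the 1 called member. Irak1, a kinase of interleukin 1 receptor signalling, was on the other side at -1.43 ± 0.32 (adjusted p = 0.0945).

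Plet1, a membrane-anchored protein that marks progenitors of the upper hair follicle, stood at 2.55 in carcinoma 1, 0.915 in carcinoma 2, 0.271 in carcinoma 3, 0.05 in carcinoma 4 and 0.026 in carcinoma 5. The papillomas ran from -3.69 over a median of -1.54 to -0.46 (n = 18), so the groups did not overlap. The difference was 2.33 ± 0.42 (adjusted p = 0.03) and had no value within set C alone. Plet1 was on the list of simple epithelial keratins and surface proteins, of which 12 were tested with a median of 0.53, 2 higher and 1 lower at an unadjusted p under 0.05. Krt7, a keratin of simple epithelia, was at -0.03 ± 1.0 (SD, n = 6) against -1.13 ± 1.09 (SD, n = 18), with adjusted p = 0.474, and Krt8 at -0.72 ± 0.546 (SD, n = 5) against -2.30 ± 2.11 (SD, n = 15), with adjusted p = 0.587. Neither passed the test. The list's median was 0.19 with the set as a block and -0.01 within set C.

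Cited2 encodes a partner of CBP and p300 that competes with hypoxia-inducible factor. Carcinomas ran from 0.16 over a median of 0.39 to 0.92 (n = 6) and papillomas from -1.13 over -0.84 to 0.01 (n = 16), with no overlap. The difference was 1.16 ± 0.21 (adjusted p = 0.03), and 0.94 in the fit that blocked on array set (adjusted p = 0.442). The 29 tested genes of glycolysis and hypoxia had a median of 0.06, with P4ha1, which hydroxylates collagen, at 0.83 ± 0.22 (adjusted p = 0.224) and Ldha at 0.61 ± 0.28 (adjusted p = 0.497). The probe without a symbol ran from -0.50 over 0.84 to 1.26 (n = 6) in carcinomas and from -1.43 over -0.82 to 0.22 (n = 19) in papillomas, with a difference of 1.33 ± 0.25 (adjusted p = 0.03). Of the 10 called features 5, Rptn, Fut7, Ppbp, Plet1 and Cited2, had every measured carcinoma beyond every measured papilloma, a state shared by 16 probes, or 0.0841% of all tested.

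**Figure D3:**
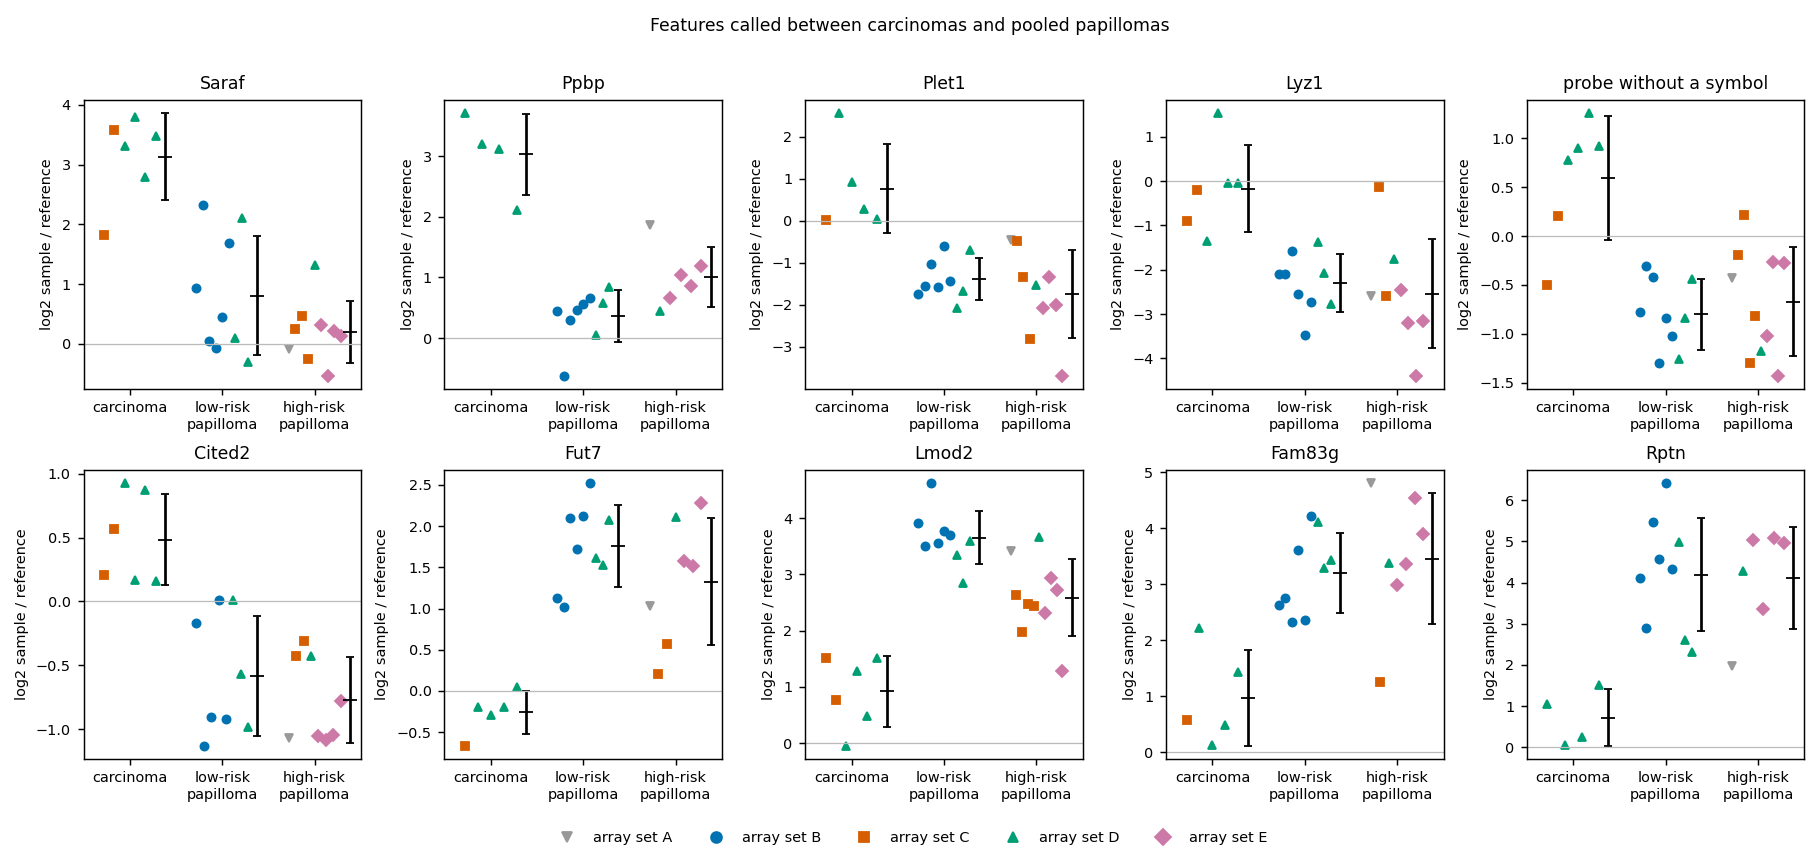
Log2 ratio of tumour over reference in every measured tumour for the 10 called features, with symbols and colours for the 5 array sets and bars for the mean ± SD of each group. The carcinoma mean lies above the papilloma means in the first 6 panels and below them in the last 4, single tumours of the groups overlap in 5 panels, and Ppbp and Rptn have no value in set C.

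Lyz1 encodes lysozyme, which cleaves bacterial cell walls, and was the 1 called member of the macrophage and monocyte list. Carcinomas ran from -1.36 over a median of -0.12 to 1.53 (n = 6), and papillomas from -4.39 over -2.56 to -0.14 (n = 17), so 3 carcinomas lay above every papilloma and 3 overlapped. The difference was 2.25 ± 0.43 (adjusted p = 0.0429), 1.61 blocked on set (adjusted p = 0.531), 2.01 within set D and 0.82 within set C. Lyz2, the near-identical lysozyme of macrophages with which the Lyz1 probe may share signal, differed by 2.40 ± 0.73 (adjusted p = 0.279). Plac8, a small cysteine-rich protein of myeloid cells and epithelia, was at -0.04 ± 0.872 (SD, n = 6) against -2.34 ± 1.12 (SD, n = 18), with adjusted p = 0.0724. Of 24 list members tested, 19 were above 0 and 5 below. At an unadjusted p under 0.05, 7 were higher and 0 lower, and the median was 0.55, the highest of the lists. The others of the 7 were Aif1, Fcgr3, Tyrobp and Mrc1, and Adgre1, a surface receptor of mature macrophages, stood at 0.15 ± 0.297 (SD, n = 6) against -1.17 ± 1.67 (SD, n = 17), with adjusted p = 0.535. The list's mean level ran from -0.28 to 0.62 in carcinomas, -1.69 to 0.22 in low-risk and -1.53 to -0.14 in high-risk papillomas, so the groups overlapped, and its median stayed above 0 in all 25 other settings, and was 0.10 within set C, 0.61 within set D and 0.73 without set C.

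Lists of other cells and of stroma are given by their medians, with at most the named genes called. Neutrophil genes (12 tested) had a median of -0.17 and split: Ltf, lactoferrin, was at 1.16 ± 1.44 (SD, n = 5) against -2.46 ± 2.60 (SD, n = 19) (adjusted p = 0.285) and Csf3r at 1.64 ± 1.19 (SD, n = 6) against 0.46 ± 0.523 (SD, n = 14) (adjusted p = 0.285), while S100a9, also made by activated keratinocytes, was at 3.13 ± 0.927 (SD, n = 4) against 4.62 ± 0.899 (SD, n = 15) (adjusted p = 0.302). T and NK cells (26 tested) had a median of -0.10, led by Cd8b1 (0.49 ± 0.22) and Cd7 (-0.41 ± 0.20). B and plasma cells (10 tested) stood at -0.17, led by Blk (-2.40 ± 0.84) and Cd79a (0.99 ± 0.43). These lists hold genes on both sides of 0 and none called. Langerhans and dendritic cells (13 tested) had a median of -0.10, led by Ciita (0.45 ± 0.19), mast cells (12 tested) 0.05, led by Hdc (1.0 ± 0.47), and red blood cells (9 tested) 0.20, led by Alas2 (-0.83 ± 0.36). Endothelium (15 tested) stood at 0.09, led by Sox18 (0.49 ± 0.23), adipocytes (16 tested) at -0.05, led by Adipoq (2.13 ± 0.77), and the sebaceous gland (11 tested) at 0.03, led by Fads2 (1.21 ± 0.39). None of these leading genes passed the test.

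Stromal lists had medians above 0 over all tumours and 0 called members. Fibroblast genes (16 tested) had a median of 0.49 with 13 above 0, but 0.08 with the set as a block and -0.06 within set C. At an unadjusted p under 0.05, 1 was higher and 0 lower, against 4.5% and 5.04% of all probes. They were led by Clec3b (0.72 ± 0.31, adjusted p = 0.459, and -0.0097 within set D). Collagens and matrix (32 tested) had a median of 0.41 with 6 higher and 1 lower at an unadjusted p under 0.05, 0.38 with the set as a block, 0.57 within set D and -0.17 within set C. Tnc, tenascin C, was at 2.03 ± 1.44 (SD, n = 6) against 0.86 ± 0.638 (SD, n = 18), with adjusted p = 0.321, and Col6a3 differed by 0.83 ± 0.31 (adjusted p = 0.369), a difference that turned to -0.06 when all its probes were averaged. Genes of the mesenchymal transition (22 tested) had a median of 0.36, which was 0.01 with the set as a block and -0.13 within set C, and their members went both ways. Axl, a receptor kinase linked to that transition, was at 0.02 ± 0.387 (SD, n = 6) against 1.42 ± 0.843 (SD, n = 15), lower in carcinomas by 1.40 ± 0.35 (adjusted p = 0.197), and Ccn2 differed by 0.98 ± 0.30 (adjusted p = 0.282). Matrix proteases and their inhibitors (33 tested) had a median of 0.18, but 0.015 against low-risk papillomas and 0.014 without carcinoma 3, led by Plat, tissue plasminogen activator (0.70 ± 0.22, adjusted p = 0.287), and Ctsl, a lysosomal protease (1.18 ± 0.42, adjusted p = 0.335).

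**Figure D4:**
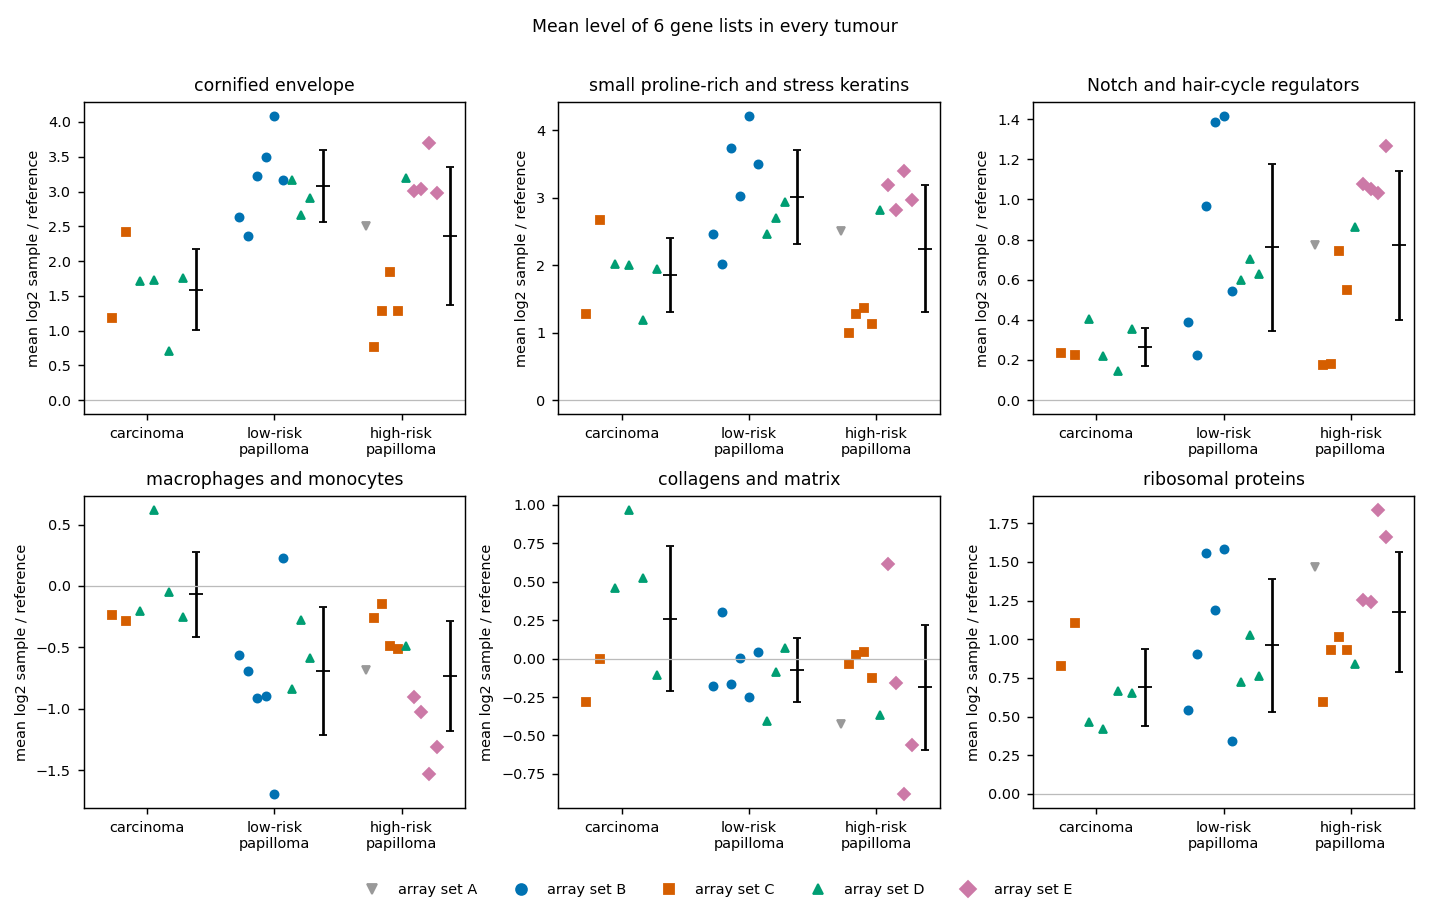
Mean log2 ratio over the members of 6 gene lists in each of the 25 tumours, by group and array set, with mean ± SD of each group. The cornified envelope list separates the groups in set D, where carcinomas lie at 0.71 to 1.76 and papillomas at 2.66 to 3.20, and not in set C.

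Growth and housekeeping lists showed 0 called members. Of 48 cell cycle genes 35 were below 0, against 9670 of all 19020 probes, with a median of -0.15. At an unadjusted p under 0.05, 6 were lower and 0 higher, against 5.04% and 4.5% of all probes. Racgap1, needed for cytokinesis, was at 0.18 ± 0.299 (SD, n = 5) against 1.48 ± 0.579 (SD, n = 18) (adjusted p = 0.0921), and Mki67, the Ki-67 antigen of dividing cells, at 0.47 ± 0.158 (SD, n = 6) against 1.67 ± 1.16 (SD, n = 19) (adjusted p = 0.392). Cyclin regulators and tumour suppressors (16 tested) stood at 0.01, with Mdm2 at 0.53 ± 0.22 and Cdkn1c at 1.43 ± 0.84, and EGFR and AP-1 signalling (28 tested) at -0.03, with the phosphatase Dusp4 at 0.74 ± 0.22 and Spry1 at -0.73 ± 0.26. Their medians are near that of all probes. Ribosomal proteins (61 tested) had a median of -0.34, with 59 below 0 and 16 lower, led by Rps3a1 (-1.18 ± 0.33, adjusted p = 0.247) and Rpl24 (-0.67 ± 0.20, adjusted p = 0.269), but 0.03 after quantile and -0.06 after scale normalization, -0.11 with the set as a block and 0.11 within set C. Oxidative phosphorylation (62 tested) stood at -0.17, but at -0.014 with the set as a block, 0.0036 within set D and -0.057 against low-risk papillomas, led by Ndufa10 (-0.55 ± 0.20) and Ndufb3 (-0.75 ± 0.30).

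Defence genes were mixed as lists. Glutathione and thioredoxin genes (39 tested) had a median of 0.08, with 5 higher and 1 lower at an unadjusted p under 0.05. Gsr, which reduces glutathione, was at 1.0 ± 0.322 (SD, n = 6) against -0.37 ± 0.731 (SD, n = 19), a difference of 1.37 ± 0.31 (adjusted p = 0.108), and Gstt2 differed by 2.04 ± 0.64 (adjusted p = 0.294). Interferon response and MHC class I genes (35 tested) had a median of 0.05, with 7 higher and 1 lower. Igtp, a GTPase induced by interferon gamma, was at 0.32 ± 1.51 (SD, n = 6) against -1.49 ± 0.8 (SD, n = 19) (adjusted p = 0.183), and Ifi204 differed by 0.92 ± 0.30 (adjusted p = 0.3). None of these 4 passed the test.

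Just outside the threshold, at an adjusted p of 0.05 to 0.1, stood 13 probes, 11 of them with a symbol, named here after their values were seen. Besides Plac8, Sprr2b, Racgap1 and Irak1 they were Ugt2b37, a glucuronosyltransferase (1.64 ± 0.33), Ftl1, the ferritin light chain (1.62 ± 0.34), and Farp2 (1.78 ± 0.39), higher in carcinomas, and Tctex1d2 (-2.31 ± 0.44), Mid2 (-2.22 ± 0.47), Lrif1 (-1.65 ± 0.35) and App, the amyloid precursor protein (-1.47 ± 0.32), lower. Of the called features the weakest, Lyz1, Fam83g and Rptn, shared an adjusted p of 0.0429.

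The papilloma groups were also taken apart. Among the 10 called features each difference from low-risk and from high-risk papillomas had the sign of the pooled one, and for none of the 72 named genes and features did limma call the gap between the 2 papilloma groups at an adjusted p under 0.05, with 11 at an unadjusted p under 0.05. Over all 19020 probes limma called that gap for 56, so few that 0 of 72 says little about the named genes. For the 11 no share over all probes was counted. The papilloma groups met only in set D, with 3 low-risk and 1 high-risk tumours. Differences between them, and between the counts against each, cannot be told apart from array set. In the 3-group fit limma called 93 probes against low-risk papillomas, 1 against high-risk papillomas and 1 against both. Over all probes, 268 were higher and 325 lower than both groups at an unadjusted p under 0.05, and 8 went opposite ways.

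**Figure D5:**
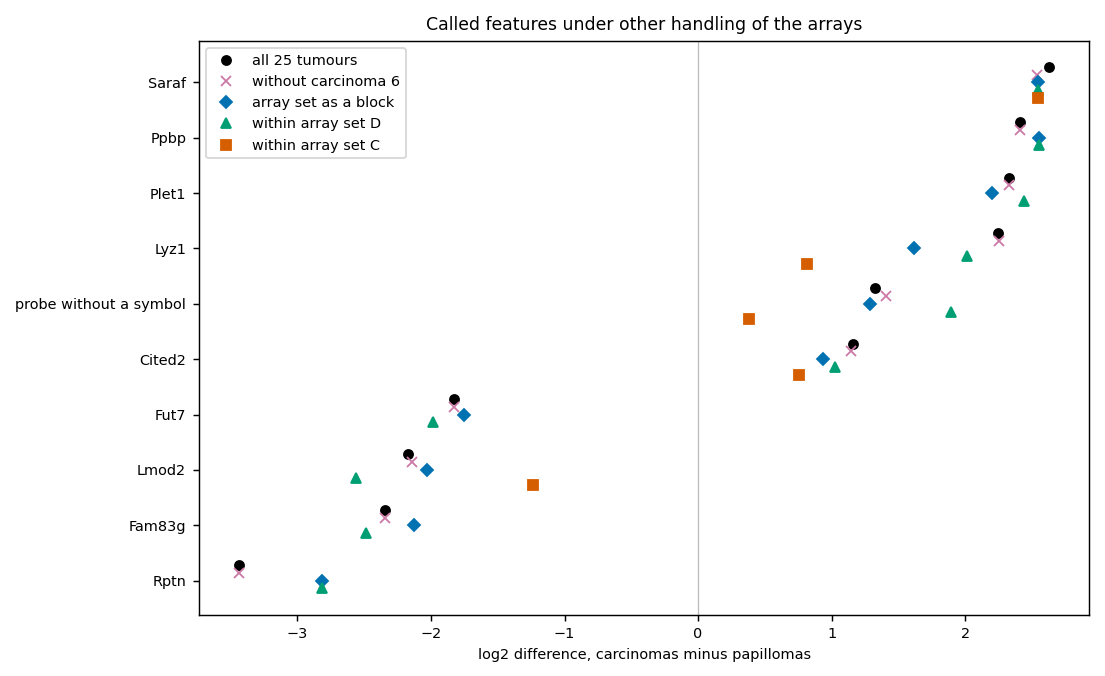
Log2 difference of the 10 called features over all 25 tumours, without carcinoma 6, with the array set as a block, and within sets D and C. No difference crosses 0, Saraf stays between 2.54 and 2.63, and the other features with a value in set C, which are Lyz1, Lmod2, Cited2 and the probe without a symbol, are smaller there.

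The calls rested on few tumours. Leaving out each tumour in turn, Saraf and Ppbp were called in 25 of 25 fits, and Lmod2 in 24, lost without carcinoma 3. Plet1 was lost without carcinoma 1, 2, 3 or 4, Fut7 without any of carcinomas 1 to 5, and the probe without a symbol without any carcinoma other than 5. Cited2 was lost without any carcinoma other than 5 and without low-risk papilloma 10 or high-risk papilloma 4. Rptn was lost without carcinoma 1, 2, 3, 4 or 6, of which carcinoma 6 gave it no value, and without low-risk papilloma 1, 4, 5 or 9 or high-risk papilloma 1, 3, 4 or 5. Fam83g was lost without carcinoma 2, 3, 4, 5 or 6, low-risk papilloma 1, 2, 5, 7, 9 or 10, or high-risk papilloma 1 to 5. Lyz1 was lost without carcinoma 2, 3, 4, 5 or 6, low-risk papilloma 1, 2, 5, 7, 8, 9 or 10, or high-risk papilloma 1, 2, 4, 5, 8 or 10. In none of these fits did a difference of the 10 turn its sign. The number of calls was 2 without carcinoma 3, 3 without carcinoma 2 or 4, 5 without carcinoma 1 or 6, 6 when high-risk papilloma 4 was left out, and 17 when low-risk papilloma 6 was. Within set D alone limma called 147 probes, 6 of them among the 10. Blocking on array set left 5 called probes, 4 of them among the 10: Saraf, Ppbp, Lmod2 and Fut7.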

How the data were processed

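The authors deposited 1 log ratio between the dye channels for each probe of an oligonucleotide array. Their normalization, spot filters, log base and direction are not given in the sources used here. The deposited values were taken as log2 from their size, and every fold rests on that. All arrays but the dye-swapped one were negated to give tumour over reference: keratinocyte genes had a median below 0 as deposited on 31 of 31 arrays with the sample in Cy3 and at 2.10 on the swapped array. The swapped array (r = 0.306 across probes with its partner) was averaged with it. Arrays were centred on their medians.

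A probe was tested with values in at least 3 carcinomas, 3 papillomas of each group and 70% of the replicates, with 1 probe per symbol, that with most values. Of 21997 probes 16076 had 1 symbol in the platform annotation, 288 several and 5633 none. Limma 3.58.1 (R 4.3.3) compared the groups with Benjamini-Hochberg adjustment over all probes. The fit was also run on simulated data, which held no array sets and so cannot test their effect on the calls. Values were summarised with numpy 2.4.6 and pandas 2.3.3, and arrays compared with scipy. Array sets are clusters of the pattern of empty probes, cut at a chosen number of 5. Members and gene lists were chosen with earlier results of these data known. Named genes are up to 12 of the largest rises and of the largest falls among well-measured genes that differ from both groups, of which 5 qualified, filled from the called ones (Fam83g and Fut7), and the called members of each list, or else the 2 with the smallest p. Other genes named, among them 11 near the threshold, Krt13, Krt4, Krt7, Krt8, Adgre1, Lyz2, Acta1, S100a9, Lce1a2 and Lce1e, were chosen after their values were seen. Replicate numbers did not pair the samples: over 20 pairs of tumours that share a number across groups, the median r was 0.0013. Other scalings, filters, blocks and omissions were tried. The 10 papillomas without a risk label were not used here.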

Additional observations from a re-analysis of the deposited data

Results flagged for a closer look

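In groups of 4 to 10 tumours, 126 groups of values were searched for a tumour far from the others, and 6 were found. Chance gives about 1 in 20. Of the 6, 3 came from low-risk papilloma 8, which was lowest of its group in the mean of the fibroblast list (-1.78, the others from -0.95 to -0.37), of endothelium (-0.93, the others from -0.34 to 0.05) and of T and NK cells (-0.51, the others from 0.10 to 0.60). The array of that tumour had the largest SD of the low-risk arrays, 1.95, and 20.8% empty probes, and their part in this was not tested. Carcinoma 2 was highest for macrophages and monocytes (0.62, the others from -0.28 to -0.05). Carcinoma 1 was lowest for glutathione and thioredoxin defence (-0.31, the others from -0.00062 to 0.16), and carcinoma 5 was lowest for neutrophils (0.21, the others from 0.75 to 1.07).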

How the results depend on the processing

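The count of called probes, 10 as reported, was 15 with 3 tumour groups in 1 fit, 54 with normal skin added, 92 after quantile and 37 after scale normalization, 2 among probes with a value in every replicate, where fewer probes were tested, and 437 with array weights. It was 6, 5 and 6 with the swapped array left out, taken as a tumour of its own or used alone. It was 5 with the array set as a block, 147 within set D, 22 with the range of database numbers as a block, and 3 with the replicate block, 2 of them among the 10, where the numbers share nothing but their name. Within set C limma called 0 probes, with 1111 at an unadjusted p under 0.05. It was 173 against low-risk and 1 against high-risk papillomas alone, groups which also differ in array set. In settings chosen after seeing the data it was 28 with carcinomas of set D only and 35 without set C. Leaving out 1 tumour gave 2 (without carcinoma 3) to 17 (without low-risk papilloma 6). The count that also differed from both groups was 53 with normal skin added, 145 within set D and 426 with array weights, was that of all called in the other settings, and was not defined within set C or against 1 papilloma group. The 10 called features kept their sign throughout. Of 3042 alternative values of the other named genes 12 turned sign: within set C Cd83 (-0.043), Cldn5 (-0.032), Csf3r (-0.0068), Defb3 (1.52), Elovl4 (1.26), Mdm2 (-0.075), Scd1 (-0.13) and Sox18 (-0.13), within set D Clec3b (-0.0097) and Hdc (-0.0145), with all probes averaged Col6a3 (-0.062), and after scale normalization Pkp1 (0.024). The causes were not tested. Both sets leave few tumours, and the empty probes of set C limit what it can show for Ppbp and Rptn. Set C has 2 carcinomas, and 1 of them is carcinoma 6, the array nearly identical to normal skin 1.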
